A study of Homo sapiens with 9 samples.

Results

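The regions described here were the 433 peaks of DHX34 binding that lay deep inside later introns, out of 2261 peaks in the list (19.2%). A peak was taken when it lay wholly inside a protein-coding gene, touched no exon of any of its transcripts, lay wholly inside an intron other than the first of the chosen transcript, and had both edges more than 2000 nt from every exon of that gene. Of the 2261 peaks, 1915 lay inside a protein-coding gene, 1349 of these touched no exon, 843 of those lay inside a later intron and 433 of the 843 passed the distance rule. The rule used positions and annotation alone and no measured value. The assay was seCLIP, a crosslinking and immunoprecipitation method which joins a protein to the RNA it touches by UV light and sequences the RNA that comes down with the protein. All 9 libraries came from UV-crosslinked HEK293T cells, an embryonic kidney line of human origin. The 5 libraries of the tagged group came from the A5 clone, whose DHX34 is fused to GFP and FLAG, and were made with anti-GFP beads, so that this group stands for 1 clone. The 4 libraries of the control group came from untagged HEK293T cells and were labelled as negative GFP inputs with anti-GFP as treatment. The list gave only a position and a score for each peak, with no strand, no read count and no value per library. The study later kept a smaller set of peaks by their reads and by the ratio of these to the reads around them, and the list does not mark which peaks these were, so that every listed peak was used. All errors below are therefore spreads over peaks and not over libraries, the depth behind a peak is unknown, and no control level can be given for any value.

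DHX34 is an RNA helicase of the DEAH-box family that is known as a factor of nonsense-mediated decay, the pathway that degrades mRNAs with a premature stop codon. Introns are transcribed with the exons and are removed by the spliceosome, which recognises a 5' splice site at the start of an intron, a branch point and a 3' splice site at its end. In long human genes most of the intron sequence lies far from any exon and holds cryptic splice sites, repeats and embedded small RNA genes. A fragment from there can come from unspliced RNA, an excised intron, an exon missing from the annotation or another RNA made from the same DNA.

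The sequences of the peaks with the most G just inside their 5' edge show a feature in which the peaks differed from the intron around them. They are printed 5' to 3' on the strand of the gene (GRCh38), with positions 6 to 15 from the 5' edge in capitals.
ENSG00000272896 (chr9:136795938-136796061, plus strand, intron 3): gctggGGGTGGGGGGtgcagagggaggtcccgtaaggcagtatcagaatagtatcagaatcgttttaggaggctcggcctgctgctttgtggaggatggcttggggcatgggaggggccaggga
PPP2R5E (chr14:63496913-63497026, minus strand, intron 2): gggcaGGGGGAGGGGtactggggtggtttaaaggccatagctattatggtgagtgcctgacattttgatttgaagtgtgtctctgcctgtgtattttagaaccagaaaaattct
AGAP1 (chr2:236087304-236087417, plus strand, intron 16): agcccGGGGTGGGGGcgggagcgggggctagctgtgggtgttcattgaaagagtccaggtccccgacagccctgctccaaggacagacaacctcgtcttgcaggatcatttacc
POLA1 (chrX:24876673-24876777, plus strand, intron 34): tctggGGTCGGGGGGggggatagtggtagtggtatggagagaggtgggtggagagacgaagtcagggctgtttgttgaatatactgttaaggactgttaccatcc
PEX14 (chr1:10595456-10595563, plus strand, intron 3): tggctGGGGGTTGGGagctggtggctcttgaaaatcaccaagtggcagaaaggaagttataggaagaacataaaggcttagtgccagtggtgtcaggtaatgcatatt
In PPP2R5E (a regulatory subunit of protein phosphatase 2A), AGAP1 (a GTPase-activating protein) and the unnamed gene ENSG00000272896, 9 of the 10 bases in capitals were G, the highest number among the 433 peaks. A peak of MCC with 9 is printed further on. In POLA1, the catalytic subunit of DNA polymerase alpha, and in PEX14, a part of the peroxisomal import machinery, 8 were.

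Runs of G can also be arranged as a G-quadruplex pattern, here 4 runs of 3 or more G with loops of 1 to 7 nt. The next 4 sequences show such patterns in capitals.
MYO1D (chr17:32510269-32510371, minus strand, intron 21): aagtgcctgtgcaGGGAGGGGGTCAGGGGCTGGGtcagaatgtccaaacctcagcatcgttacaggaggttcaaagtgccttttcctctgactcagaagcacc
SLIT2 (chr4:20325401-20325509, plus strand, intron 4): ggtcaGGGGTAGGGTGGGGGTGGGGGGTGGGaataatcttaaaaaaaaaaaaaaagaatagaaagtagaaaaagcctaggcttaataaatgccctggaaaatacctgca
FRAS1 (chr4:78127143-78127244, plus strand, intron 2): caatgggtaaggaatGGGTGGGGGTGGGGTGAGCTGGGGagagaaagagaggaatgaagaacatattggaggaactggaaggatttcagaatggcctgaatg
ENOX2 (chrX:130653420-130653521, minus strand, intron 10): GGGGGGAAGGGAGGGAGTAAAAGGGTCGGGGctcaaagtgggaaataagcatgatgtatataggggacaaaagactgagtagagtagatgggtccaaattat
The letters describe a pattern and not a folded structure. In SLIT2 (a secreted guidance cue of axons) and ENOX2 the pattern lay at the 5' end of the peak and in part within positions 6 to 15. In MYO1D (an unconventional myosin) and FRAS1 (an extracellular matrix protein) it began past the first 10 bases.

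A second kind of sequence resembled the 5' splice site, although no annotated exon of the gene lay within 2000 nt. Printed next are the 3 peaks with the best match outside the wide peak of NT5C2, with the 9 matching bases in capitals.
DHRS12 (chr13:51795065-51795172, minus strand, intron 2): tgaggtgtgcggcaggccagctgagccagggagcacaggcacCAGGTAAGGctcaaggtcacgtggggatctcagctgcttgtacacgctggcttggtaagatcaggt
FAM193B (chr5:177529124-177529224, minus strand, intron 5): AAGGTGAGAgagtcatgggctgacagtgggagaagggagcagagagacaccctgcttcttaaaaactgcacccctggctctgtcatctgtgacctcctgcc
PARD3 (chr10:34482540-34482640, minus strand, intron 3): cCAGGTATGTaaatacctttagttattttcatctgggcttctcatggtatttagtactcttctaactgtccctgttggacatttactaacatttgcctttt
The peaks of FAM193B and PARD3, a polarity protein of cell junctions, began at most 1 base before such a match.

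The last set shows how the peaks of 1 gene varied, with positions 6 to 15 again in capitals. WWOX and PLCB1 each held 4 of the peaks, of which 3 are printed for WWOX, and the 2 closest peaks of all lay in MCC.
WWOX (chr16:78141541-78141642, plus strand, intron 4): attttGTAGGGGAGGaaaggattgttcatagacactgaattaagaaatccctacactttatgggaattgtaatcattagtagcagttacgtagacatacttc
WWOX (chr16:78181862-78181964, plus strand, intron 5): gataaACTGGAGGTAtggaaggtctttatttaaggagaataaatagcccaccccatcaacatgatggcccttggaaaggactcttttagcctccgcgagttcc
WWOX (chr16:78919029-78919143, plus strand, intron 8): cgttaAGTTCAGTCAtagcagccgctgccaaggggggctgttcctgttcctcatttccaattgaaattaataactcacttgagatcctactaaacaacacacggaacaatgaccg
PLCB1 (chr20:8188049-8188153, plus strand, intron 2): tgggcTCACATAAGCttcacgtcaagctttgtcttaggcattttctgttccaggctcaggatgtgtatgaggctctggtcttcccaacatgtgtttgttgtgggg
PLCB1 (chr20:8366255-8366358, plus strand, intron 2): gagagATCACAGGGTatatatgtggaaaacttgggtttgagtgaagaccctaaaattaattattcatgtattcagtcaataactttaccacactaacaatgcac
PLCB1 (chr20:8501544-8501644, plus strand, intron 3): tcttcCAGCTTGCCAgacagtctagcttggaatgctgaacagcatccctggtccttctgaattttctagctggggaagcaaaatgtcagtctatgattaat
PLCB1 (chr20:8526593-8526706, plus strand, intron 3): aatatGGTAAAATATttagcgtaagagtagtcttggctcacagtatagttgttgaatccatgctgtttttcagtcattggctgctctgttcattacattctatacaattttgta
MCC (chr5:113285261-113285361, minus strand, intron 3): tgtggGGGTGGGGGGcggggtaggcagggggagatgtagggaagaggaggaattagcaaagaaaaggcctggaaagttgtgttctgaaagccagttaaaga
MCC (chr5:113194128-113194236, minus strand, intron 3): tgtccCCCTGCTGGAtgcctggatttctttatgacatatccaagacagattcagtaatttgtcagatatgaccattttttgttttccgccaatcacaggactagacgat
MCC (chr5:113193628-113193729, minus strand, intron 3): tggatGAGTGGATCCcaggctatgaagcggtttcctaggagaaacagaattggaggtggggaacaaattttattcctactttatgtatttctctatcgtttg
FHIT (chr3:60313374-60313475, minus strand, intron 5): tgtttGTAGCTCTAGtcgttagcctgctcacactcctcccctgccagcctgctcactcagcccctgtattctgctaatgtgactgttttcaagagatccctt
UBAC2 (chr13:99373689-99373817, plus strand, intron 8): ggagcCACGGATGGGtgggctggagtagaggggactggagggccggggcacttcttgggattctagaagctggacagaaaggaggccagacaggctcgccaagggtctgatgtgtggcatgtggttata
WWOX encodes an oxidoreductase, PLCB1 a phospholipase C and MCC a gene first studied in colorectal cancer. In the order printed, the capitals held 7, 4 and 2 G in WWOX and 1, 3, 2 and 2 G in PLCB1. The peak of FHIT, a gene at a common fragile site, is shown because it lay farthest from an exon, and that of UBAC2 because its score was 2. With 3 and 5 G neither was among the peaks with the most G.

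Most of the 433 peaks were narrow. Widths ran from 101 to 494 nt with a median of 103 nt (quartiles 102 and 105 nt). Per the study's methods, the peak caller extended each read to a fixed length just below the smallest of these widths. A width is therefore not the length of the bound RNA. At most 110 nt were covered by 385 peaks (88.9%, 95% Wilson interval 85.6 to 91.5%), and 48 peaks (11.1%, interval 8.46 to 14.4%) were wider than 110 nt. Only 9 were wider than 200 nt. The widest was in ARHGAP17 (494 nt, last intron), followed by FTO (472 nt, last intron), which encodes an RNA demethylase. In intron 2 of CACNA2D3, a subunit of voltage-gated calcium channels, 2 wide peaks of 226 and 405 nt lay 1680 nt apart. The other peaks among the 10 widest were in CAMKMT (377 nt), LRRC1 (362 nt), NFIB (305 nt), NT5C2 (298 nt), NECTIN1 (217 nt) and TLE4 (183 nt). Wilson intervals here and below cover counting error over peaks only.

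The score, a whole number in the list whose meaning is not stated, was 1 for 431 peaks and 2 for the peaks in UBAC2 (129 nt wide, intron 8) and CA8 (143 nt wide, intron 3). Both had 5 G at positions 6 to 15, and both were wider than 110 nt. With 2 peaks no comparison by score was made.

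The peaks lay up to 222334 nt from the nearest exon, with a median of 7474 nt (quartiles 3736 and 16461 nt). More than 10 kb separated 166 peaks (38.3%, 95% Wilson interval 33.9 to 43.0%) from any exon, more than 50 kb separated 27 (6.24%) and more than 100 kb separated 7 (1.62%). Those 7 were in FHIT (222334 and 142216 nt), ROBO2 (129388 nt), SLC35F3 (124773 nt), WWOX (120960 nt), LHFPL6 (104308 nt) and COL23A1 (100892 nt). FHIT and WWOX both span common fragile sites, and ROBO2 encodes a receptor for SLIT proteins. Just inside the distance rule were KIF18A (2001 nt), ADAMTS17 (2010 nt), DOCK3 (2019 nt), TLE1 (2031 nt) and GLIS1 (2047 nt). Just outside it were peaks in KLHL22 (1978 nt), ZNF423 (1975 nt), GCNT2 (1957 nt), CELF1 (1956 nt) and RTTN (1941 nt).

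Within their introns the peaks showed no preferred end that passed the test. The introns were long, with a median of 40.2 kb (4.597 to 779 kb). The midpoint lay in the upstream part, before the middle of the intron, in 234 of 433 peaks (54.0%, 95% Wilson interval 49.3 to 58.7%; exact two-sided binomial test against an even split, p = 0.102, adjusted p = 0.189 over 24 tests). Cut into 5 equal parts from the 5' end, the introns held 64, 120, 100, 101 and 48 peaks, where the low counts at both ends follow in part from the distance rule. The second intron held 123 peaks, at 1.06 per Mb of intron sequence that satisfied the distance rule. The third held 77 (1.03 per Mb), the fourth 45 (0.966 per Mb), the fifth 46 (1.27 per Mb) and all later introns 142 (0.750 per Mb). The later intron with the most sequence beyond 2000 nt held the peak in 251 cases (58.0%), against 55.9% if peaks were spread by length. Last introns held 37 peaks (8.55%).

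Peaks were counted per Mb of sequence that satisfied the same rule in all protein-coding genes. No length was taken off for the width of a peak or for repeats whose reads the study removed. The 433 peaks fell in 463 Mb, a density of 0.934 per Mb. Later-intron sequence within 2000 nt of exons held 410 peaks at 1.28 per Mb, so that the ratio was 0.729 (95% interval 0.635 to 0.837; exact binomial test, two-sided, p = 5.05e-06, adjusted p = 3.03e-05). First-intron sequence beyond 2000 nt held 228 peaks at 1.16 per Mb (ratio 0.802, interval 0.682 to 0.946, exact p = 0.00825, adjusted p = 0.0330). By distance, the density was 1.06 per Mb (exact Poisson interval 0.881 to 1.27) at 2 to 4 kb from the nearest exon, 1.01 at 4 to 8 kb, 0.920 at 8 to 16 kb, 0.849 at 16 to 32 kb and 0.718 (0.534 to 0.943) beyond 32 kb. The bins by distance were not split by gene size, and its part in the fall was not tested. GC content was 40.1% in the deep later-intron sequence, 41.3% in deep first-intron sequence and 42.1% near exons, and its part in the densities was not tested.

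**Figure D1:**
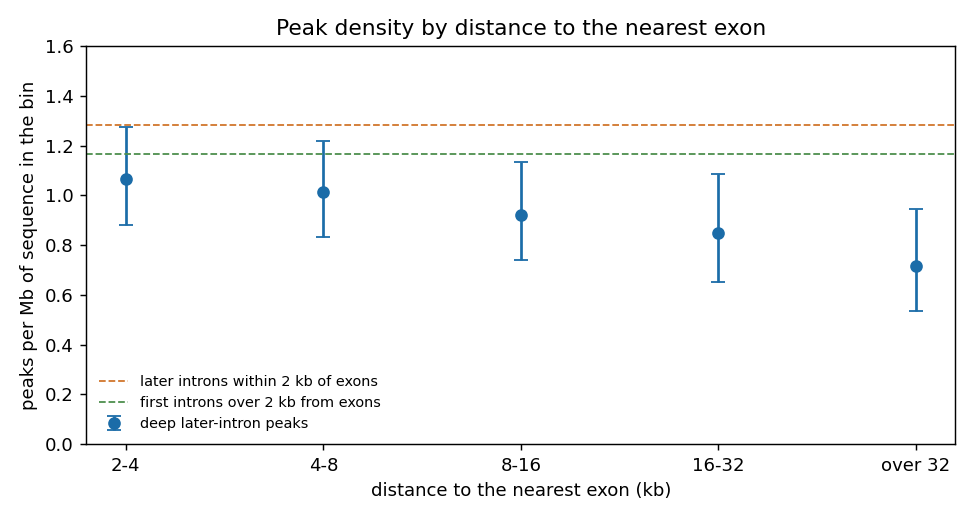
Density of the 433 deep later-intron peaks (peaks per Mb of sequence in the bin, y axis) by distance to the nearest exon in kb (x axis), with 95% exact Poisson intervals as bars. Dashed lines give the pooled densities of later introns within 2 kb of exons (1.28 per Mb) and of first introns beyond 2 kb (1.16 per Mb), and the points fall from 1.06 to 0.718 per Mb. The bins are not split by gene size.

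Among genes of like size the ratios lay on both sides of 1. Genes were put in 4 bands by their deep later-intron sequence, a split chosen after the densities had been seen and open only to genes that have such sequence. In genes with up to 30 kb of it, the density was 1.22 per Mb for the deep later-intron peaks, 1.40 for the later-intron peaks near exons and 1.61 for the deep first-intron peaks. With 30 to 100 kb the values were 1.29, 1.18 and 1.06, with 100 to 300 kb they were 1.00, 0.896 and 1.02, and above 300 kb they were 0.560, 0.623 and 0.300. None of the 8 differences within a band passed (unadjusted exact binomial p of 0.0696 to 0.928). Over the 4 bands the Mantel-Haenszel ratio was 0.994 (95% interval 0.847 to 1.17) against the peaks near exons and 1.00 (0.837 to 1.202) against the deep first-intron peaks. With the 298 genes above 300 kb left out, the ratio was 0.857 (0.739 to 0.993, unadjusted exact binomial p = 0.0391) against the peaks near exons and 0.876 (0.738 to 1.04, p = 0.135) against the deep first-intron peaks. Both of these ratios also counted genes with no deep later-intron sequence, which are in none of the bands. They are therefore not a summary of the smaller bands.

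The lowest densities were thus in the genes with the most intron sequence. The 298 genes above 300 kb held 92 peaks in 63 genes, and their density of 0.560 per Mb (exact Poisson interval 0.451 to 0.686) lay below that of each smaller band. Among the 20 genes with the most deep later-intron sequence, 3 held a peak: PTPRD, a receptor tyrosine phosphatase, and FHIT had 2 each and PRKG1, a cGMP-dependent protein kinase, had 1, or 0.175 per Mb in 28.6 Mb. Among those with no peak of this kind listed were DLG2, MACROD2, EYS, CTNNA3, DMD, NRXN3, CNTNAP2, CSMD1, GPC5, LRP1B, RBFOX1, AGBL4, CCSER1, GALNTL6, IL1RAPL1 and IL1RAPL2. Several of these encode synaptic or neuronal cell-surface proteins (NRXN3, CNTNAP2, IL1RAPL1), and DMD encodes dystrophin of muscle. The list holds no transcript level, so that few fragments of an RNA and little of that RNA in the cells cannot be told apart. With no depth, a gene without a peak is not shown to be unbound.

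**Figure D2:**
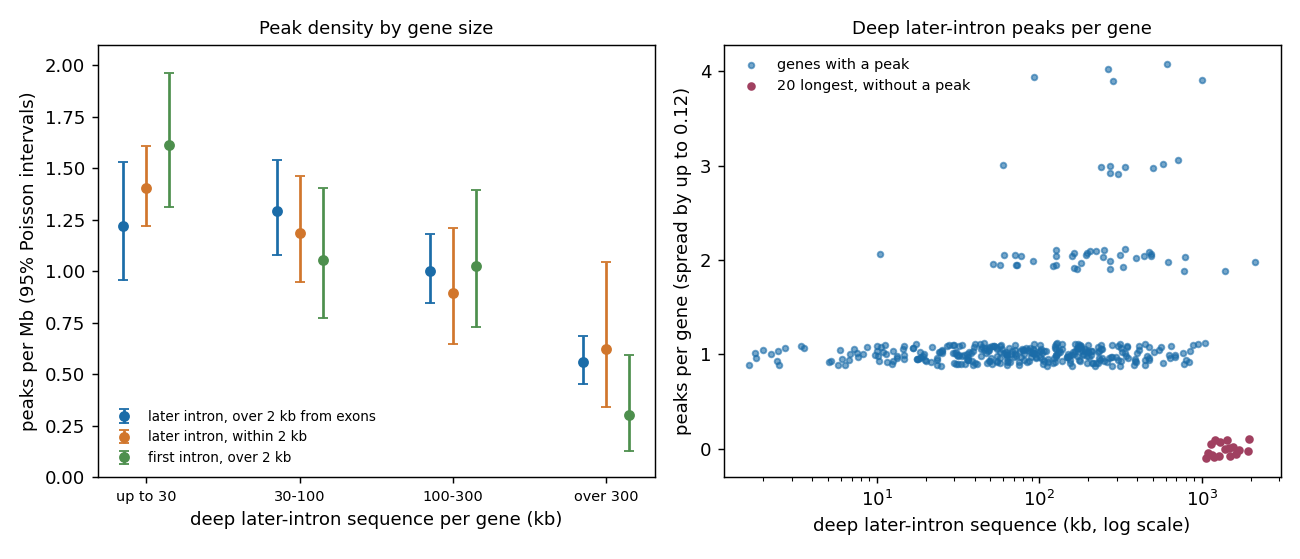
Left, peaks per Mb with 95% exact Poisson intervals in 4 bands of deep later-intron sequence per gene (kb), for deep later-intron, near-exon later-intron and deep first-intron peaks, which all lie lowest above 300 kb. Right, number of deep later-intron peaks per gene against the gene's deep later-intron sequence (kb, log scale), with points spread vertically by up to 0.12, for the 361 genes with a peak and the 17 of the 20 longest without one.

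The 433 peaks fell in 361 of the 10306 protein-coding genes with any deep later-intron sequence (3.50%). Of these, 308 genes held 1 peak, 39 held 2, 9 held 3 and 5 held 4, so that 53 genes held 125 of the peaks. In 297 of the 361 genes (82.3%) no exonic, first-intron or near-exon later-intron peak was listed beside them. Such a peak near an exon was listed in 22 of the genes, a first-intron peak in 24 and an exonic peak in 20. At least 1 such peak was thus listed in 64 of the 361 genes (17.7%), against 842 of the 9945 genes with deep later-intron sequence and no deep later-intron peak (8.47%). The former genes were longer, with a median of 210 kb against 60.8 kb, and this difference was not tested. In 428 cases the gene had a MANE Select transcript, which ENSG00000272896 lacked, and in 5 cases the gene was a read-through gene. The density was highest on chromosome 22 (17 peaks, 3.19 per Mb), followed by 19 (8 peaks, 1.94 per Mb) and 17 (24 peaks, 1.91 per Mb). Chromosomes were not tested against each other, and gene size was not taken into account. It was 0.571 per Mb on chromosome 8, 0.594 on chromosome 6, 0.596 on X, and 0 peaks were listed on Y.

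Among the genes with 4 peaks were MCC, PLCB1, SLIT2 and WWOX. In SLIT2 (ENSG00000145147.20, chromosome 4, 20251905 to 20620561, plus strand) all 4 lay in intron 4 of 36, which made 15.1 per Mb, and they held 7, 5, 4 and 3 G of 10 at the 5' edge. In MCC (ENSG00000171444.19, chromosome 5, 113022106 to 113488823, minus strand) 3 lay in intron 3 and 1 in intron 4 (14.1 per Mb), and the G numbers were 9, 3, 4 and 3 from the 5' end of the gene. PLCB1 (ENSG00000182621.19, chromosome 20, 8077251 to 8968360, plus strand) held 2 in intron 2 and 2 in intron 3 (6.54 per Mb), and none of the 4 had more than 3 G at the edge. WWOX (ENSG00000186153.19, chromosome 16, 78099400 to 79212667, plus strand) held 4.01 per Mb, and the 3 printed peaks, in introns 4, 5 and 8 of 8, had 7, 4 and 2 G.

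The genes with 3 peaks were AOPEP, COL23A1, FRAS1, GRID1, RANBP17, SDK1, SMAD6, TBC1D22A and TTC28. SMAD6, an inhibitor of BMP signalling, held all 3 in its last intron, at 49.9 per Mb. GRID1, a glutamate receptor of the delta type, had the most G at the edge, with a mean of 5.67 of 10, while COL23A1, a transmembrane collagen, and FRAS1 had means of 1.67. In 6 of the 14 genes with 3 or 4 peaks all of them lay in the same intron. Among the genes with 2 peaks, calcium channel subunits (CACNA1C, CACNA2D2 and CACNA2D3), transcription factors (DACH1, EBF3, GLIS1, LMX1B, TCF12 and TCF7L2) and inositol phosphate enzymes (INPP5A and ITPK1) occurred, as did IGF1R, the receptor for insulin-like growth factor, and GNAQ, a G protein subunit upstream of phospholipase C. RAB40A held 2 in 10.5 kb of deep sequence. The others were ANKRD11, ARID1B, ATP9A, AUTS2, CAMKMT, CLEC16A, CRACR2A, DENND1A, EXOC6B, FHIT, KIAA1328, LHFPL6, LIN7A, MAD1L1, MAP4K4, MYO1D, NBDY, PARD3, PLEKHA7, PTPRD, RERE, SLC44A5, SNX29, SUGCT and TTC7B.

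Neighbouring peaks of the same gene were mostly far apart. Of 72 neighbouring pairs, 42 shared an intron, 11 lay less than 10 kb apart and the median gap was 47972 nt. The closest pairs were 398 nt apart in MCC, 582 nt in EBF3, 755 nt in SMAD6, 1222 nt in RAB40A, 1429 nt in CRACR2A and 1680 nt in CACNA2D3. The EBF3 peaks both had a G-rich edge (5 and 6 of 10), whereas those of RAB40A had 2 and 2, and the close pair of MCC had 4 and 3.

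Gene groups were described by peaks per Mb of deep later-intron sequence, beside 0.934 per Mb for all eligible genes and with no test. Wnt pathway genes held 8 peaks in 4 of 30 eligible genes (4.92 per Mb, exact Poisson interval 2.13 to 9.70). They were MCC with 4, TCF7L2, a transcription factor at the end of the pathway, with 2, and APC, a scaffold of beta-catenin degradation, and TNIK, a kinase, with 1 each. TGF-beta and BMP pathway genes held 4 in 2 of 30 genes (3.20 per Mb, 0.872 to 8.19), with 3 in SMAD6 and 1 in LTBP1, which binds latent TGF-beta. Collagens and laminins held 4 in 2 of 42 genes (1.36 per Mb, 0.371 to 3.49), 3 of them in COL23A1 and 1 in COL27A1.

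Among the groups reported here, the others lay nearer to or below the value of all eligible genes, and not every group is reported. Axon guidance ligands and receptors held 9 in 6 of 48 genes (1.25 per Mb, 0.571 to 2.37), with 4 in SLIT2 and 1 each in its receptors ROBO1 and ROBO2, in NTN1, a netrin, in EFNA5, an ephrin, and in EPHA6, an ephrin receptor. Calcium and phospholipase C signalling genes held 7 in 4 of 49 (1.29 per Mb, 0.521 to 2.67), in PLCB1, the calcium release channel ITPR1, the kinase PRKCE and the diacylglycerol kinase DGKD. Glutamate and GABA receptors held 3, all in GRID1, of 42 genes (0.356 per Mb, 0.0733 to 1.04). Genes on the spliceosome and splicing regulator list held 1, in CELF4, of 62 (0.298 per Mb, 0.00753 to 1.66). That list is partial, and SFSWAP, which is not on it, held 1 peak in intron 13. Cadherins, protocadherins and catenins held 2, in CDH12 and CDH23, of 41 (0.189 per Mb, 0.0229 to 0.683). MCC, SLIT2, PLCB1, COL23A1 and EFNA5 were known to hold several peaks when the lists were written. Without these genes the densities were 2.98 per Mb for the Wnt pathway (4 peaks, 0.812 to 7.63), 0.579 for axon guidance, 0.626 for calcium and phospholipase C signalling and 0.375 for collagens and laminins.

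Another annotated gene was overlapped by 46 of the 433 peaks (10.6%), and by 24 (5.54%) on the opposite strand, where the strand of the RNA is not known. An exon of such a gene was touched by 11 peaks (2.54%). Hairpins of 3 miRNAs lay under peaks. The whole of MIR4729 (72 nt, same strand) was covered by a peak in intron 2 of YPEL2, and 36 of the 77 nt of MIR4714 (same strand) by a peak in intron 2 of IGF1R. The whole of MIR610 (96 nt) was covered by the peak of KIF18A, a mitotic kinesin, but on the opposite strand, and that peak had 0 G at positions 6 to 15 on the strand of KIF18A.

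A sequence feature of the peaks was G just inside the 5' edge. G made up 25.2% of bases in the 50 nt before the edge, 32.9% at positions 1 to 5, 37.5% at positions 6 to 15, 30.8% at positions 16 to 30, 26.9% at positions 31 to 50 and 22.99% at positions 51 to 100. The same profile was seen in later-intron peaks near exons (38.8% at positions 6 to 15) and in deep first-intron peaks (37.1%). At positions 6 to 15 counted inward from the 3' edge, the deep later-intron peaks held 22.6% G and 22.2% C. This window and the 3 G-rich words used below had been picked from the whole list, the 433 peaks included, so that the values describe the feature in these peaks and are no independent evidence of it. The study extended reads past their sequenced length when peaks were called. Bases toward the 3' edge may therefore lie outside the sequenced fragments.

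**Figure D3:**
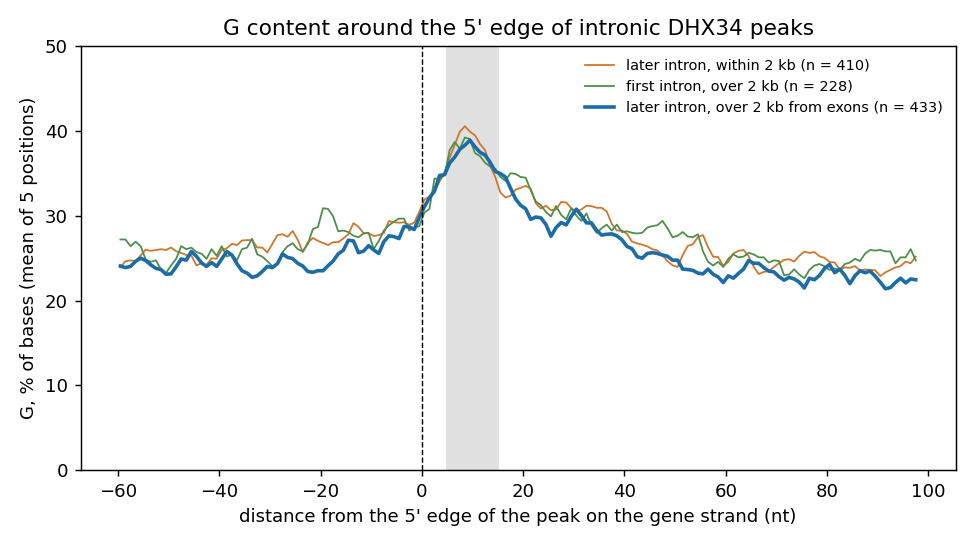
Share of G (% of bases, mean of 5 neighbouring positions, y axis) by distance from the 5' edge of the peak on the gene strand in nt (x axis) for deep later-intron (n = 433), near-exon later-intron (n = 410) and deep first-intron peaks (n = 228). The grey band marks positions 6 to 15, where G made up 37.5%, 38.8% and 37.1%, and the dashed line marks the edge.

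Each peak was compared with a window of its own width 500 nt upstream in the same intron. The 10 bases at positions 6 to 15 held 3.75 ± 1.97 G (SD, n = 433 peaks) in the peaks and 2.36 ± 1.59 in the windows. The peak had more G in 280 pairs and fewer in 94, with 59 ties (exact two-sided sign test, p = 1.39e-22, adjusted p = 1.67e-21). At least 5 of the 10 bases were G in 153 peaks (35.3%, 95% Wilson interval 30.98 to 39.9%) and in 45 windows (10.4%, 7.86 to 13.6%), while 12 peaks had none. The asymmetry between strands was of like size, but it rests on the same G numbers and is no separate evidence. G near the 5' edge exceeded C near the 3' edge in 282 peaks and fell short of it in 94, with 57 ties (75.0% of the untied peaks, exact two-sided sign test, p = 6.17e-23, adjusted p = 1.48e-21). The same share was 77.3% (279 of 361) in later-intron peaks near exons and 78.8% (160 of 203) in deep first-intron peaks. At least 5 C at the 3' edge were found in 32 deep later-intron peaks (7.39%), with the most, 7, in ITPK1 and CAMTA1, each of which also had 6 G at the 5' edge.

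**Figure D4:**
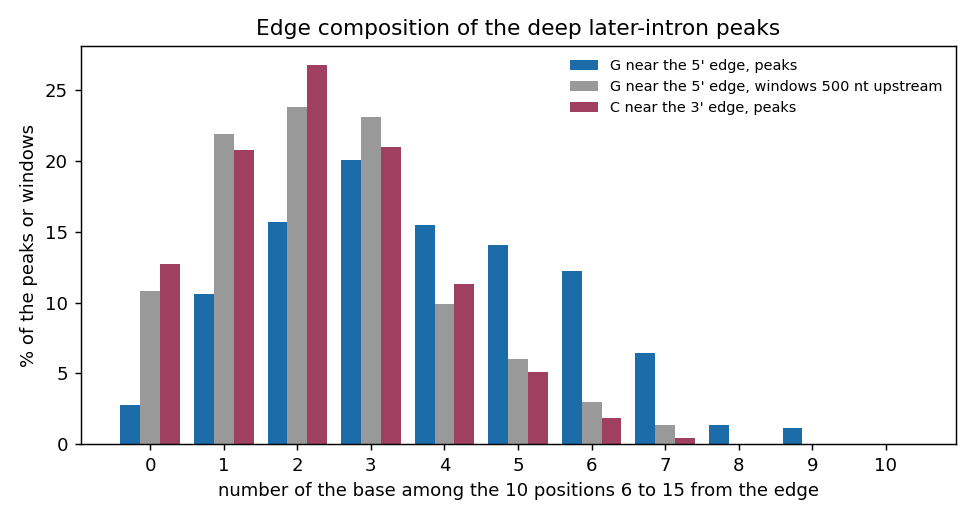
Distribution over the 433 deep later-intron peaks of the number of G among the 10 bases at positions 6 to 15 from the 5' edge, in the peaks and in windows of the same width 500 nt upstream, and of the number of C at the mirrored positions of the 3' edge (x axis, number of the base; y axis, % of peaks or windows). Numbers of 5 or more made up 35.3% of peaks, 10.4% of windows and 7.39% at the 3' edge.

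The G-rich edge was present at all distances from exons. At least 5 of 10 were G in 34.5% of the peaks at 2 to 4 kb, 32.4% at 4 to 8 kb, 41.6% at 8 to 16 kb, 36.5% at 16 to 32 kb and 31.4% beyond 32 kb, with widely overlapping Wilson intervals (20.3 to 45.0% in the last bin of 51 peaks). Of the 7 peaks more than 100 kb from an exon, ROBO2 had 5 G, FHIT 3 and 2, LHFPL6 3, WWOX 2, SLC35F3 2 and COL23A1 1.

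Other measures that depend on G also differed in the same pairs. GC content was 46.3 ± 10.8% (SD, n = 433 peaks) in the peaks and 43.6 ± 11.2% in the windows, with the peak higher in 251 pairs and lower in 167 (exact two-sided sign test, p = 4.65e-05, adjusted p = 2.23e-04). At least 1 of the words GGAGGG or GGGGAG or GAGGAG, which can overlap each other, stood on the gene strand in 135 peaks (31.2%) and in 50 windows (11.5%). It stood in the peak alone in 113 pairs and in the window alone in 28 (exact two-sided McNemar test, p = 2.64e-13, adjusted p = 2.11e-12). On the opposite strand 40 of the peaks held such a word (9.24%). A G-quadruplex pattern was found in 16 peaks (3.70%) and in 4 windows (exact two-sided McNemar test, p = 0.0118, adjusted p = 0.0405), and on the opposite strand in 4 peaks. Without pairs that had a repeat-rich window the pattern was in the peak alone in 11 pairs and in the window alone in 2, so that the peak's share of the untied pairs was 84.6% in place of 80.0%, with fewer pairs and an exact McNemar adjusted p = 0.0547, past the threshold no longer.

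Splice-site and folding measures did not pass the test. The best 5' splice site score, from a matrix of 9 positions made from annotated introns, averaged 4.31 ± 2.79 (SD, n = 433 peaks) in the peaks and 4.11 ± 2.81 in the windows, with the peak higher in 227 and lower in 205 (exact two-sided sign test, p = 0.312, adjusted p = 0.441). The highest scores were 11.6 in DHRS12 and 10.5 in FAM193B and NT5C2, and 10.3 in PARD3. The words GTAAGT or GTGAGT of the 5' splice site stood in 21 peaks (4.85%) and in 18 windows (4.16%), a difference that was not tested. The minimum free energy of folding of the first 100 nt was -23.3 ± 9.10 kcal/mol in the peaks and -21.5 ± 8.84 kcal/mol in the windows, lower in 235 peaks and higher in 198 (exact two-sided sign test, p = 0.0835, adjusted p = 0.167). With windows 500 nt downstream the sign test for folding passed (adjusted exact p = 0.0276). Against the upstream windows the mean difference in folding energy was -1.88 kcal/mol (standard error 0.519), a size that the sign test does not weigh.

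All 6-mers were then compared between peaks and upstream windows. Of 4096, 5 were in more peaks than windows at an adjusted p under 0.05 (0.122% of those tested, exact McNemar test, Benjamini-Hochberg over all 6-mers) and 0 in fewer (0%). At an unadjusted p under 0.05 the numbers were 127 and 108. All 5 were G-rich. GGAGGG stood in 61 peaks and 21 windows (adjusted exact p = 0.0139) and GAGGAG in 62 and 23 (adjusted exact p = 0.0177). The word AGGGGG stood in 44 and 11 (adjusted exact p = 0.0177), a run of 6 G in 30 and 5 and GGGTGG in 50 and 17 (adjusted exact p = 0.0223 for both). Of the words that lay in fewer peaks, TCACGC (2 peaks, 19 windows) and AGGCTG (23 peaks, 53 windows) had the smallest p, with adjusted exact p values of 0.0906 and 0.0909.

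Windows and peaks differed in repeats. At least 10% of the 16-mers occurred 100 or more times in the genome in 19 peaks (4.39%) and in 117 windows (27.0%), and the study removed reads in transposable elements from the data behind the peaks. With the pairs of such windows left out, 316 pairs remained, the calls for G at the edge, GC content and the G-rich words held, and 0 of the 6-mers passed in either direction.

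Against the other intronic peaks few features of the deep later-intron peaks differed. Peaks wider than 110 nt made up 11.1% of them and 16.8% (69 of 410) of the later-intron peaks near exons (odds ratio 0.617, 95% interval 0.405 to 0.932, two-sided Fisher's exact p = 0.0169, adjusted p = 0.0492). A GC content of at least 50% was found in 40.2% and 48.3% (odds ratio 0.720, interval 0.542 to 0.954, Fisher's exact p = 0.0185, adjusted p = 0.0492). Both calls lay close to the threshold and were lost under several settings, such as 1 peak per gene (adjusted exact p = 0.0526 for each). Abundant 16-mers, in 4.39% and 8.29%, narrowly missed it (adjusted Fisher's exact p = 0.0547).

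The remaining features did not pass the test against peaks near exons. A G-rich edge was found in 35.3% and 36.1% (difference -0.763 points, 95% interval -7.21 to 5.68) and a G-rich word in 31.2% and 30% (1.18 points, -5.04 to 7.37). The words GTAAGT or GTGAGT of the 5' splice site were in 4.85% and 4.15% (0.704 points, -2.21 to 3.60), and a gene on the opposite strand in 5.54% and 9.02% (-3.48 points, -7.12 to 0.0405, adjusted Fisher's exact p = 0.136). Against the deep first-intron peaks 0 of 7 features passed at an adjusted p under 0.05 (Fisher's exact test, and 0 of 7 at an unadjusted p under 0.05). The largest differences in points were in GC content (-5.87, interval -13.8 to 2.02) and the G-rich edge (35.3% and 40.8%, -5.45, -13.3 to 2.25). These intervals do not show that the classes were alike.

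**Figure D5:**
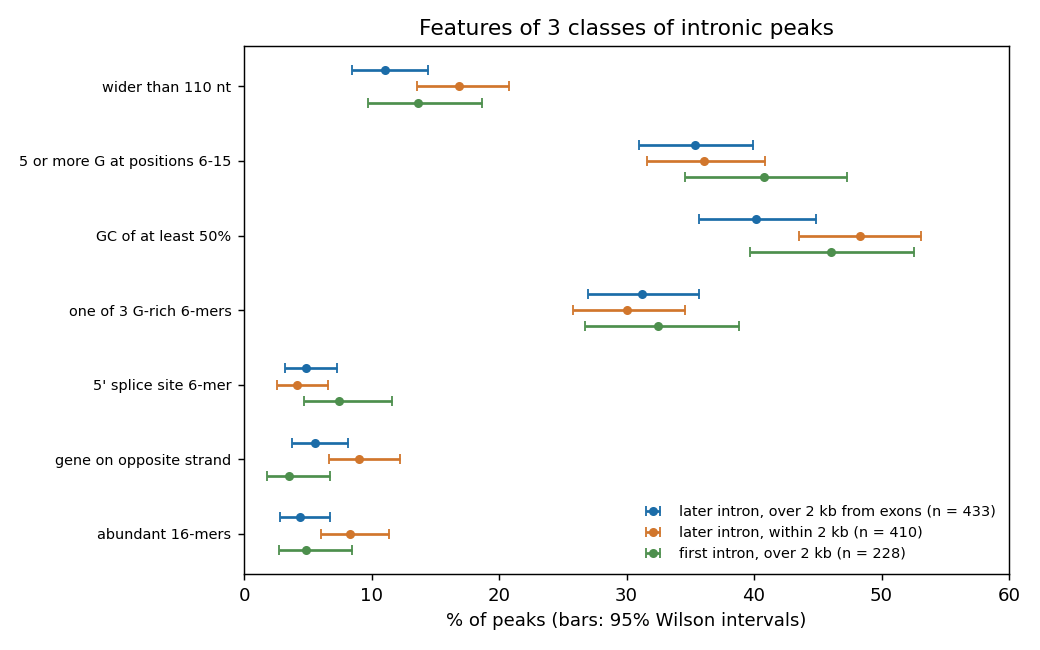
Share of peaks (% of peaks, x axis) with each of 7 features (y axis) among deep later-intron, near-exon later-intron and deep first-intron peaks, with 95% Wilson intervals as bars. The largest separation from the near-exon peaks is in GC content of at least 50% (40.2% and 48.3%) and in width (11.1% and 16.8%).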

How the data were processed

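The 9 libraries were grouped by their labels. Per the study's methods, the authors trimmed reads with cutadapt, handled molecular identifiers with UMI-tools, aligned to GRCh38 with bowtie2, kept uniquely placed reads, removed reads in transposable elements and called peaks with MACS2 in each tagged library and in the merged libraries, with the merged negative inputs as control. Replicates were thus joined before deposit. The caller extended each read to a fixed length, on which the widths of the peaks depend. The deposited list has 4 columns, and its only value is a score of unstated meaning. The list was taken to be the union of calls, which it does not state, before the authors' later selection on read support, which was not applied here.

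Peaks were placed on GENCODE release 44 (GRCh38; the authors' annotation was another release), with MANE Select or else canonical transcripts. Coordinates count from 1. Classes were compared by Fisher's exact test, peaks with upstream windows by exact sign or McNemar tests, and densities by an exact binomial test, with Benjamini-Hochberg over 24 tests (SciPy 1.17.1). Folding used ViennaRNA 2.7.2. Scripts were tested on simulated data. Removal of repeats can lower counts in repeat-rich introns. Members, gene lists, the edge window and the words were chosen with earlier results of these data known. Genes named held 2 or more peaks, a score of 2, an extreme width, distance or G number, a listed function, a small RNA or the most deep sequence. Genes beside the distance limit, those of the printed G-quadruplex and splice-site sequences and those with the most C were named after their values were seen. Alternatives were other distances, transcript exons, windows, word lengths, and peaks or genes left out. Some genes and sequences that these rules name are not reported here.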

Additional observations from a re-analysis of the deposited data

How the results depend on the processing

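No paired analysis was possible because the list holds no value per library, so that no replicate could be blocked or left out. Repeated 16-mers as first planned (over 1 copy) were not used, since 100% of peaks passed; 16-mers with 100 copies were used instead, a choice made after seeing the data, as were the settings on abundant 16-mers and on genes above 300 kb. Density without repeat-rich peaks was not run. Of 206 recomputed values 166 were counted as unchanged. A test value had to keep its direction and side of the threshold, and a count of words had to stay near the main count. Values without genes above 300 kb were judged by their unadjusted p. Another 7 odds ratios, none past the threshold in either setting, crossed 1. That for G at the edge against near-exon peaks (0.967) was 1.04 at 1000 nt, 1.02 at 5000 nt and 1.05 at most 110 nt wide. That for G-rich 6-mers was 0.968 at 1000 nt and 0.922 at 5000 nt against near-exon peaks (from 1.06) and 1.14 at 5000 nt against first introns (from 0.943). That for abundant 16-mers against first introns (0.905) was 1.13 with exons of the chosen transcript alone. The density against first introns was no longer past the threshold at 5000 nt from exons (ratio 0.794), in peaks of at most 110 nt (0.825) and without genes above 300 kb (0.876). The odds ratio for width against near-exon peaks lost its call at 1000 nt (0.671), at 5000 nt (0.677), with exons of the chosen transcript alone (0.660), 1 peak per gene (0.597), opposite-strand genes left out (0.661) and repeat-rich peaks left out (0.605). That for GC content lost it at 1000 nt (0.718), 5000 nt (0.697), 1 peak per gene (0.700) and at most 110 nt (0.830). The G-quadruplex share of untied pairs lost its call at 5000 nt (81.8%), at most 110 nt (75.0%), without repeat-rich peaks (78.9%) and without repeat-rich windows (84.6%). The folding share, 43.6%, passed with downstream windows. Words in more peaks numbered 17 at 1000 nt, 0 at 5000 nt, 15 with chosen-transcript exons, 2 with 1 peak per gene, 8 without opposite-strand genes, 0 at most 110 nt wide, 3 without repeat-rich peaks, 12 with downstream windows (4 of the 5 main words among them), 0 without repeat-rich windows and 24 as 5-mers. Words in fewer peaks numbered 7 at 1000 nt, 2 with chosen-transcript exons, without repeat-rich peaks and with downstream windows, and 3 as 5-mers. Fewer peaks enter at 5000 nt (275), with 1 peak per gene (361), at most 110 nt (385) and without repeat-rich windows (316). For the other changes the cause was not tested.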
